A study of Mus musculus with 24 samples.

Results

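The genes described here are the Ifi200 (PYHIN) family of intracellular DNA sensors, together with the cyclic GMP-AMP synthase Cgas and the adaptor Sting1. The 8 genes were Ifi202b, Ifi203, Ifi204, Aim2, Pyhin1, Mndal, Cgas and Sting1, and their probes were found by gene name. Of the 8, 7 were named by at least 1 of 10 probes on the array, and 6 passed the filter on dim probes and were tested, among 14427 tested genes of 22911 named genes. Ifi203 was named by no probe and was not analysed here. Pyhin1 is the older name of the gene that RefSeq calls Ifi209.

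The cells were ID8, a mouse ovarian cancer line derived from ovarian surface epithelium, and all values come from this 1 line. All wells were plated at 150000 cells and harvested after 3 hours in the same medium with a recombinant mouse type I interferon or with PBS vehicle. The groups were IFN epsilon at 10, 100 and 1000 IU/ml (3 samples each), IFN beta at 10 and 100 IU/ml (2 samples each), IFN beta at 1000 IU/ml (3 samples) and PBS-treated cells, labelled untreated (UT, 3 samples, each run on 2 arrays that were averaged). Samples with the same replicate number were made on the same date, and a sample combined the technical repeats of a treatment. The labels leave out the third-date samples of IFN beta at 10 and 100 IU/ml because their interferon-stimulated genes were unusually high, so 19 samples were compared.

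Type I interferons bind a shared receptor on the cell surface, whose signalling switches on interferon-stimulated genes from promoter elements rich in GAAA repeats. IFN beta is made by most cells on infection, whereas IFN epsilon is present without infection in reproductive tract epithelium. PYHIN proteins carry a pyrin domain that binds partner proteins and, in most members, a HIN domain that binds double-stranded DNA. Cgas makes the second messenger cyclic GMP-AMP when it meets DNA in the cytosol, and Sting1 on the endoplasmic reticulum binds that messenger and leads through the kinase Tbk1 to Irf3. The family lies side by side on chromosome 1 in RefSeq's order, with Cgas on chromosome 9.

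The promoters of several family members share a short stretch, and the letters are shown because these genes are compared for their response to interferon. RefSeq promoter windows (build GRCm38.p6, 250 bases before to 50 after each start) were found for 6 of the 8 genes, and sequences of Ifi204 and Sting1 were not used here. A core of the interferon-response type, GAAANNGAAA, was searched on both strands. It was found in 10 of the 14 windows of the PYHIN family (71.4%), against 1131 of all 32851 promoter windows (3.44%). Among the 8 windows of the genes named at the start, 3 held it (37.5%). The family's windows are not separate cases. Some genes gave 2 windows, and the Ifi213 and Ifi208 stretches were the same over 57 of 57 bases. The shorter AAATCGAAA overlaps GAAANNGAAA and was chosen after the family's promoters had been seen. It was in 8 of the 14 family windows (57.1%), against 41 of all windows (0.125%). The following stretches are printed 5′ to 3′ along the gene, with AAATCGAAA, or GAAANNGAAA where that alone was found, in capitals. The Mndal stretch is chr1:173880190-173880246 on the minus strand, that of Ifi203 chr1:173942494-173942550 on the minus strand, that of Pyhin1 chr1:173630757-173630813 on the plus strand, that of Ifi208 chr1:173673584-173673640 on the plus strand, and that of Ifi205 chr1:174031856-174031913 on the minus strand.
Mndal: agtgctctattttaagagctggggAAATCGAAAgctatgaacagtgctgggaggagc
Ifi203: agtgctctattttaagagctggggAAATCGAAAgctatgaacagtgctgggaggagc
Pyhin1: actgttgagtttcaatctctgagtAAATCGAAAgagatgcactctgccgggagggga
Ifi208: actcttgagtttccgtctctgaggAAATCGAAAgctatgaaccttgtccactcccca
Ifi205: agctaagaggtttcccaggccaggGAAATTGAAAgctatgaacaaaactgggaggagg

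The Mndal and Ifi203 stretches were identical over 57 of 57 bases, while Mndal and Pyhin1 shared 38 of 57. GAAATCGAAA began 36 bases before one of the 2 starts of Mndal and 35 bases before one of the 2 starts of Ifi203, and AAATCGAAA began 78 bases before that of Pyhin1, whose window held no GAAANNGAAA. The Aim2, Cgas and Ifi202b windows held neither set of letters, which says only that these letters are not in those 300 bases. A core of the GAS type, TTCNNNGAA, was in the Ifi202b window and in 8.3% of all windows. The looser GAAANNGAA, which lies inside GAAANNGAAA, was in the same number of family windows, 10 of 14, against 8.56% of all windows. A match is a description of the letters and not evidence of a bound site. Among the genes with such letters, the array had probes for Mndal, Pyhin1, Ifi208, Ifi205, Ifi213 and Ifi214, which are described below. Ifi213 and Ifi214 were at or near background in all groups and were not tested.

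Each array's signal at the 75th percentile of all probes lay between 643.5 and 1221 intensity units, 50.1% to 58.8% of probes were well above background, and no spot was saturated. The 2 arrays of each UT sample correlated at 0.991 to 0.993. All 9 epithelial and mesothelial markers, among them Krt7, Krt8, Krt18, Epcam, Wt1 and Msln, were above background on every array. Of 11 leukocyte markers, 5 (Cd14, Cd3e, Cd68, Csf1r and Itgam) were above background on every array and Ptprc was not, and the sum of the 11 in linear units of the 75th percentile was 3.34 to 5.01 in all groups. Of 6 endothelium and fibroblast markers, 4 were above background on all UT arrays and 5 on all arrays of every interferon group, with sums of 43.1 to 56.1. The markers tested were 9 of 9 epithelial and mesothelial, 5 of 11 leukocyte and 5 of 6 endothelium and fibroblast genes. None of these passed the test in any comparison with UT, and the rest were too dim to be tested. Levels below are log2 intensity relative to the array's own 75th percentile, which is 0, so they compare samples and not genes. RNA from a whole well was measured, so a change in RNA per cell and a change in how many cells make it cannot be told apart.

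**Figure D1:**
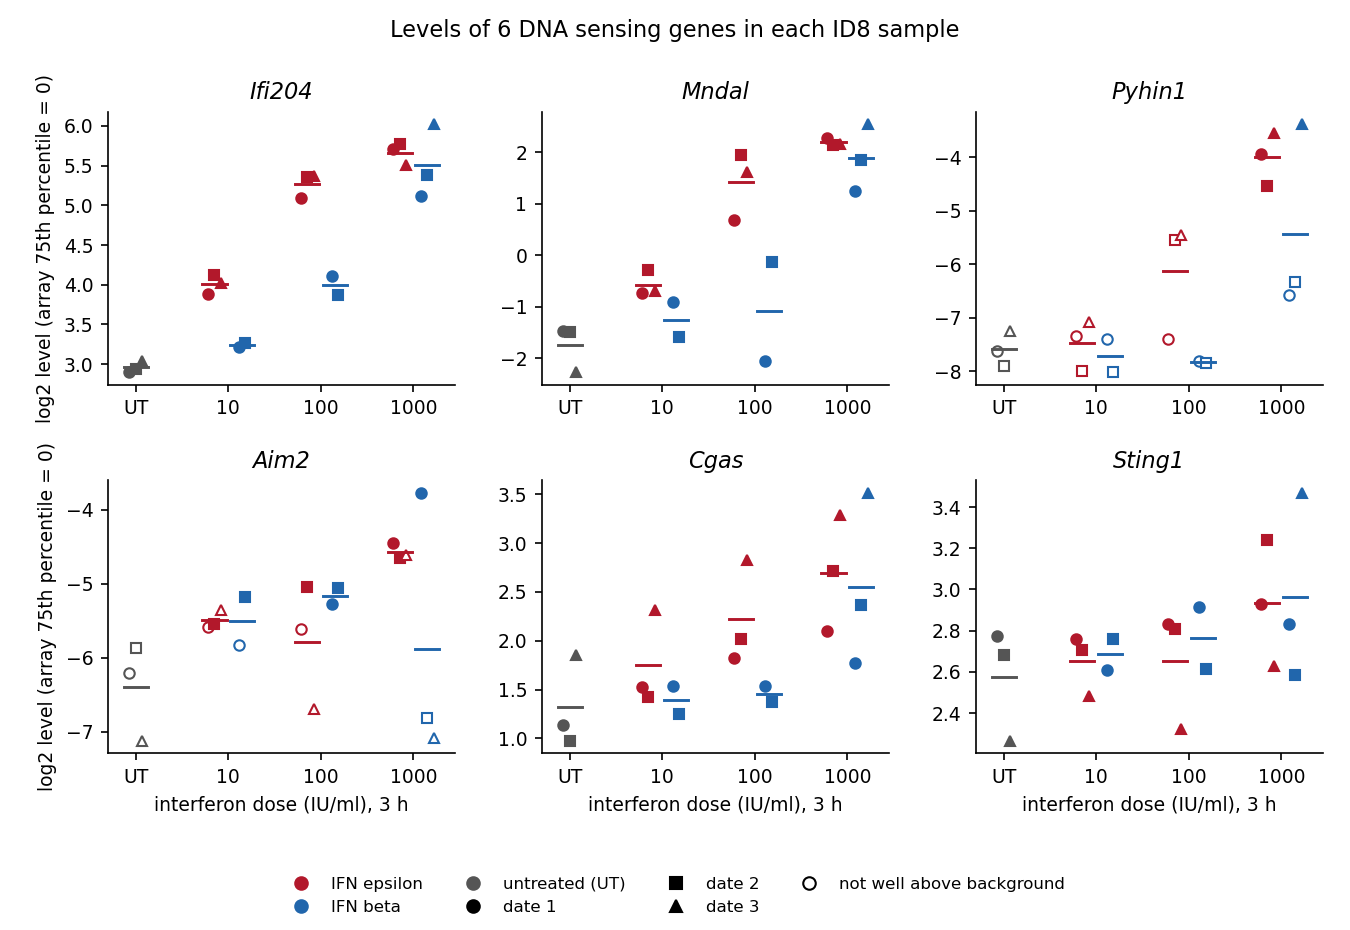
Level of each measured gene in every sample (y axis, log2 intensity relative to the array's 75th percentile) by group (x axis), with the group mean as a line. Open points are samples in which not all arrays were well above background, and the marker shape is the date. All Ifi204 and Mndal samples with IFN epsilon lie above the UT samples, Pyhin1 is above background on all arrays only at 1000 IU/ml IFN epsilon, and Sting1 lies between 2.27 and 3.47 throughout.

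Ifi204, the mouse counterpart most often set beside human IFI16 and a sensor reported to act upstream of Sting, was already well above background in untreated cells and showed the most regular dose series. Its level was 3.89, 4.13 and 4.03 on dates 1 to 3 at 10 IU/ml IFN epsilon, 5.09, 5.36 and 5.38 at 100 IU/ml and 5.70, 5.78 and 5.51 at 1000 IU/ml. With IFN beta it was 3.22 and 3.27 at 10 IU/ml, 4.12 and 3.87 at 100 IU/ml and 5.12, 5.38 and 6.02 at 1000 IU/ml, against 2.90, 2.94 and 3.04 in UT cells. All samples of each of the 6 interferon groups were above all UT samples.

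Against UT, Ifi204 rose 2.08-fold at 10 IU/ml IFN epsilon (log2 1.05 ± 0.18 SE, adjusted p = 0.0248 in limma), 4.97-fold at 100 IU/ml (log2 2.31, adjusted p = 4.04e-06) and 6.52-fold at 1000 IU/ml (log2 2.70, adjusted p = 5.51e-07). It rose 5.85-fold at 1000 IU/ml IFN beta (log2 2.55, adjusted p = 1.31e-06), while the 1.22-fold difference at 10 IU/ml did not pass the test. The 2.04-fold difference at 100 IU/ml IFN beta had an adjusted p of 0.122, and with the date as a block it passed (log2 1.09, adjusted p = 0.0371). All comparisons with UT share the same 3 UT samples. In order of mean level from high to low, IFN epsilon at 1000 IU/ml (5.66 ± 0.14 SD, n = 3) was followed by IFN beta at 1000 IU/ml (5.51 ± 0.46, n = 3), IFN epsilon at 100 IU/ml (5.27 ± 0.16, n = 3) and 10 IU/ml (4.01 ± 0.12, n = 3), IFN beta at 100 IU/ml (3.99 ± 0.18, n = 2) and 10 IU/ml (3.25 ± 0.03, n = 2) and UT (2.96 ± 0.07, n = 3). In that order the samples of neighbours overlapped between the 1000 IU/ml groups, between 1000 IU/ml IFN beta and 100 IU/ml IFN epsilon, and between 10 IU/ml IFN epsilon and 100 IU/ml IFN beta. The call at 10 IU/ml IFN epsilon was lost in 10 of the 18 other settings tried, among them each of the 6 that left out 1 sample (adjusted p 0.0520 to 0.173), and over all 18 the adjusted p was 0.00318 to 1.00.

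Mndal, a nuclear PYHIN protein with both pyrin and HIN domains, had the widest range among the members above background in untreated cells. It had levels of -0.73, -0.29 and -0.70 at 10 IU/ml IFN epsilon, 0.68, 1.93 and 1.62 at 100 IU/ml, and 2.27, 2.13 and 2.15 at 1000 IU/ml. With IFN beta the levels were -0.91 and -1.59 at 10 IU/ml, -2.05 and -0.13 at 100 IU/ml and 1.25, 1.84 and 2.54 at 1000 IU/ml, against -1.47, -1.48 and -2.27 in UT cells. The samples at 10 and 100 IU/ml IFN beta overlapped with UT, and those of the other 4 interferon groups did not. Mndal rose 8.90-fold at 100 IU/ml IFN epsilon (log2 3.15, adjusted p = 0.00132), 15.2-fold at 1000 IU/ml IFN epsilon (log2 3.93, adjusted p = 9.40e-05) and 12.3-fold at 1000 IU/ml IFN beta (log2 3.62, adjusted p = 2.81e-04, all in limma). The 2.25-fold difference at 10 IU/ml IFN epsilon (log2 1.17 ± 0.46 SE) and the log2 differences of 0.49 ± 0.51 and 0.65 ± 0.51 at 10 and 100 IU/ml IFN beta did not pass.

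Pyhin1, a PYHIN gene induced by interferon in mouse immune cells, was not well above background in UT cells on any of the 6 arrays. It was above background on 3 of 3 arrays at 1000 IU/ml IFN epsilon, with levels of -3.93, -4.53 and -3.54, and on 1 of 3 arrays at 1000 IU/ml IFN beta, with levels of -6.58, -6.33 and -3.37. The UT levels were -7.61, -7.90 and -7.25. Only the third-date sample of IFN beta was above background. Because UT was below background, the difference is a lower bound, set by the dimmest signal well above background on each UT array: at least 3.00-fold higher at 1000 IU/ml IFN epsilon (adjusted p = 0.00871 in limma). Pyhin1 passed the filter on dim probes only through the 1000 IU/ml IFN epsilon group, so a difference in that group was built into its being tested. At 1000 IU/ml IFN beta, with 1 of 3 arrays above background, no bound is read. The adjusted p there was 0.294 in limma (0.0601 with the date as a block). At 100 IU/ml IFN epsilon the levels were -7.40, -5.55 and -5.44, none of them well above background. The Pyhin1 call rests on dim signal: under normexp background correction the log2 difference at 1000 IU/ml IFN epsilon was 0.84 (adjusted p = 0.320), and in the authors' deposited values it was 1.39 (adjusted p = 0.120), within a range of adjusted p from 0.00187 to 0.320 over all settings.

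Aim2, the family member that binds Pycard and builds a caspase-1 inflammasome, was near background everywhere. Its brighter probe was above background on 2 of 3 arrays at 1000 IU/ml IFN epsilon, with levels of -4.45, -4.65 and -4.61, and on none of the 6 UT arrays, with levels of -6.20, -5.87 and -7.12. These samples did not overlap, but not all of the IFN epsilon arrays were above background, so no size is read. The difference did not pass the test (adjusted p = 0.333 in limma, and 0.0943 with the date as a block). At 1000 IU/ml IFN beta the levels were -3.77, -6.81 and -7.08, with 1 array above background, so 1 sample was above all UT samples and the others lay within the UT range. At 100 IU/ml IFN beta the brighter probe was above background on 2 of 2 arrays. Its levels there, -5.27 and -5.06, were above all UT samples, and the difference did not pass the test. It was also above background on 1 array each at 10 and 100 IU/ml IFN epsilon and at 10 IU/ml IFN beta. The other Aim2 probe was never above background.

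Ifi202b, a PYHIN protein with HIN domains and no pyrin domain that can oppose Aim2, had 2 probes and was above background on 1 array only, at 10 IU/ml IFN epsilon on date 1, with a level of -3.69. It was not tested.

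Cgas, the enzyme that makes cyclic GMP-AMP, was above background in all samples and differed by date as well as by treatment. Its levels on dates 1 to 3 were 1.52, 1.42 and 2.31 at 10 IU/ml IFN epsilon, 1.82, 2.01 and 2.82 at 100 IU/ml and 2.10, 2.71 and 3.28 at 1000 IU/ml. With IFN beta they were 1.53 and 1.25 at 10 IU/ml, 1.54 and 1.37 at 100 IU/ml and 1.77, 2.36 and 3.52 at 1000 IU/ml, against 1.14, 0.97 and 1.86 in UT cells. The third date was the highest in all 5 groups that had it, and within each date every interferon-treated sample was above that date's UT sample. Without the date in the model, the 2.59-fold difference at 1000 IU/ml IFN epsilon (log2 1.37 ± 0.43 SE, adjusted p = 0.192) and the 2.34-fold difference at 1000 IU/ml IFN beta (log2 1.23 ± 0.43 SE, adjusted p = 0.425) did not pass. With the date as a block the same differences passed, with adjusted p of 8.25e-04 and 0.00272, and so did the 1.86-fold difference at 100 IU/ml IFN epsilon (adjusted p = 0.0354, all in limma). A second, dimmer Cgas probe differed from UT by log2 0.47, 1.02 and 1.46 at the doses of IFN epsilon from low to high, and by 1.50 at 1000 IU/ml IFN beta.

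Sting1, the adaptor that receives the product of Cgas, kept a level between 2.27 and 3.47 in every group. At 1000 IU/ml IFN epsilon its levels were 2.93, 3.24 and 2.63, and at 1000 IU/ml IFN beta 2.83, 2.59 and 3.47, against 2.78, 2.68 and 2.27 in UT cells. The groups overlapped. The log2 difference from UT was 0.36 at 1000 IU/ml IFN epsilon (95% interval -0.13 to 0.85) and 0.39 at 1000 IU/ml IFN beta (95% interval -0.10 to 0.88), and at the lower doses it was 0.08 to 0.19. No Sting1 difference passed the test with or without the date as a block. The upper bounds of these intervals allow a change of less than 1 log2 unit and do not show that the level was the same.

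**Figure D2:**
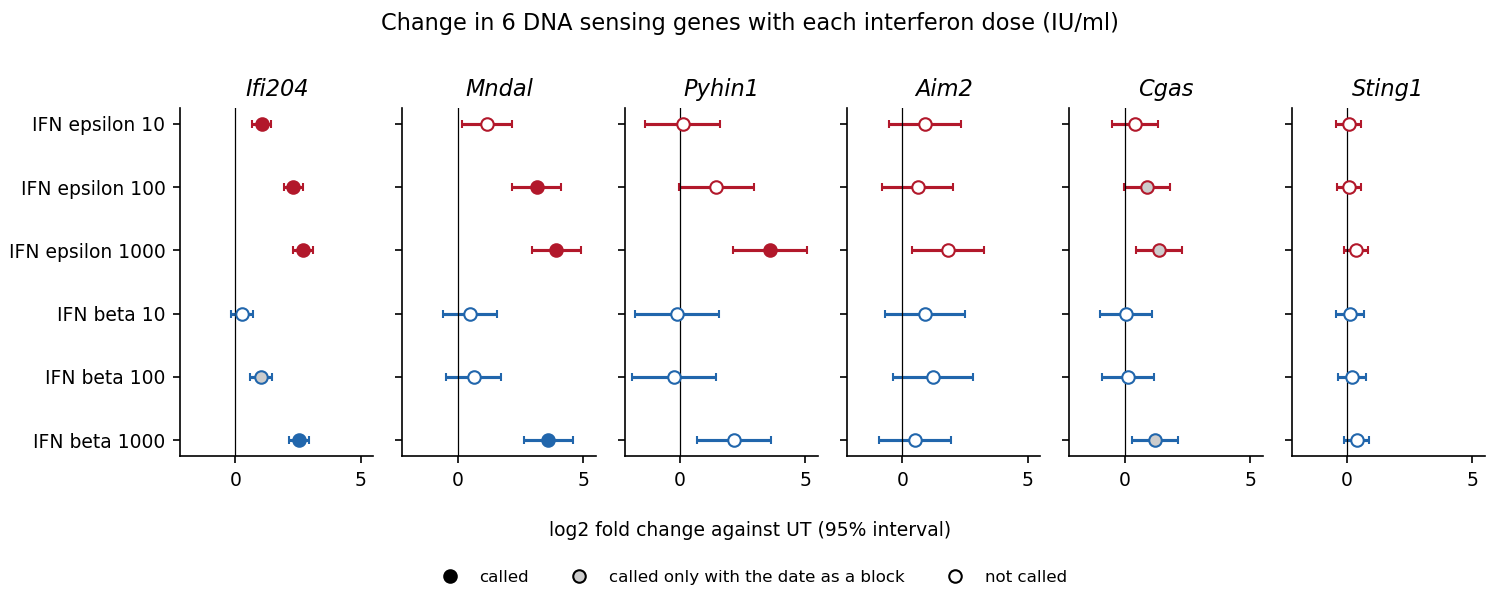
Log2 difference from UT (x axis) of each tested gene, 1 panel a gene, with 95% intervals from limma, for each dose of IFN epsilon and IFN beta in IU/ml (y axis). Filled points passed the test, grey points passed only with the date as a block, and open points did not pass. The Ifi204 and Mndal intervals at 1000 IU/ml lie above 0 for both interferons, and the Sting1 intervals include 0 at every dose. UT cells were below background for Pyhin1 and Aim2, so their positions are fitted values and not measured sizes.

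Calls were counted over the 6 tested genes. With IFN epsilon, 1 gene passed at 10 IU/ml (Ifi204), 2 at 100 IU/ml (Ifi204 and Mndal) and 3 at 1000 IU/ml (with Pyhin1), where 0.201%, 1.05% and 2.19% of all tested genes were called higher. With IFN beta, 0 passed at 10 IU/ml, 0 at 100 IU/ml and 2 at 1000 IU/ml (Ifi204 and Mndal), where 0%, 0.111% and 1.55% of all genes were called higher. Pyhin1 was tested only because it was above background at 1000 IU/ml IFN epsilon, and without it 2 genes were called there, as many as at 100 IU/ml. At 10 IU/ml IFN beta, 47 of all genes had an unadjusted p under 0.05 in limma. With the date as a block the counts were 1, 3 and 4 for IFN epsilon from low to high dose, against 0.513%, 1.46% and 4.33% of all genes, and 1 and 3 for IFN beta at 100 and 1000 IU/ml, against 0.284% and 2.72%. The genes added by the block were Cgas at 100 and 1000 IU/ml IFN epsilon and at 1000 IU/ml IFN beta, and Ifi204 at 100 IU/ml IFN beta. The median log2 difference of the 6 genes was 0.67, 1.18 and 2.27 with IFN epsilon and 0.20, 0.42 and 1.69 with IFN beta, while that of all tested genes was between -0.07 and 0.00 in the 6 comparisons. The medians of the 6 take in Aim2 and Pyhin1, for which UT cells were below background. They are medians of fitted values and not of measured sizes.

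Some arrays of a group shared a slide, so the differences were also taken within slides. At 1000 IU/ml IFN epsilon against UT, the log2 differences within the 3 slides were 2.55, 2.80 and 2.76 for Ifi204, 3.88, 4.15 and 3.76 for Mndal and 1.86, 1.14 and 1.12 for Cgas. Slides crossed dates: slide 1 set date 3 against UT of dates 1 and 3. Slide 2 set date 2 against UT of dates 1 and 3, and slide 3 set date 1 against UT of date 2. These values therefore also hold differences between dates. For Cgas, slide 1 gave 1.86, against 1.43 within date 3. With the slide as a random block the Ifi204 value was 2.70 and the Mndal value 3.93, and both passed. The third-date sample of IFN beta at 1000 IU/ml was the highest of its group for all the tested members but Aim2. Without it the log2 difference from UT was 2.29 for Ifi204, 3.29 for Mndal, 0.74 for Cgas and 0.14 for Sting1. When the 2 samples that the labels leave out were put back, Ifi204 at 1000 IU/ml IFN epsilon was the only call left among the members (adjusted p = 0.0434), and Mndal there had an adjusted p of 0.0837.

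At matched doses, the 2 interferons differed for Ifi204 at 100 IU/ml. Its level was 2.43-fold higher with IFN epsilon than with IFN beta (log2 1.28 ± 0.20 SE, 95% interval 0.85 to 1.72, adjusted p = 0.0238 in limma), and within dates 1 and 2 the log2 difference was 0.97 and 1.49. This was the 1 call among the 6 members at that dose, where 0.0901% of all genes were called higher with IFN epsilon (0.36% with the date as a block, which called the same gene with an adjusted p of 0.0210). The call was lost in 8 of 17 other settings, with adjusted p from 0.00672 to 1.00. With the left-out third-date IFN beta sample put back, the log2 difference was 0.62, and that sample, at 5.98, was above all 3 IFN epsilon samples. Mndal was 5.67-fold higher with IFN epsilon than with IFN beta at 100 IU/ml (log2 2.50 ± 0.51 SE, 95% interval 1.41 to 3.60), which did not pass without a block (adjusted p = 0.118) or with the date as a block (0.0744) and passed with the slide as a block (0.0456). For Cgas the difference at 100 IU/ml was log2 0.76 (95% interval -0.27 to 1.79), and for Sting1 -0.11 (-0.66 to 0.44), and neither passed. Pyhin1 was not well above background in either group.

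At 10 IU/ml no member passed between IFN epsilon and IFN beta, against 0.097% of all genes called higher. Ifi204 differed there by log2 0.77 ± 0.20 SE and Mndal by 0.68 (95% interval -0.41 to 1.77), and the 3 IFN epsilon samples of each gene were above both IFN beta samples. At 1000 IU/ml no member passed and no gene was called higher (0%), while 186 genes had an unadjusted p under 0.05 in limma. The difference there was log2 0.16 for Ifi204 (95% interval -0.24 to 0.55), 0.31 for Mndal (-0.67 to 1.29), 0.15 for Cgas (-0.77 to 1.07) and -0.03 for Sting1 (-0.52 to 0.46). On dates 1 and 2 the IFN epsilon sample was above the IFN beta sample for Ifi204, Mndal and Cgas, and on date 3 it was below. The log2 differences of Mndal on the 3 dates were 1.02, 0.29 and -0.39. Sting1 had 0.09, 0.66 and -0.84, and Aim2 ran otherwise, with -0.69, 2.17 and 2.47. Aim2 and Pyhin1 were each above background on 1 of 3 arrays at 1000 IU/ml IFN beta, so no size is read from their differences there. The 1000 IU/ml intervals still allow a difference of more than 1 log2 unit for Mndal and Cgas.

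**Figure D3:**
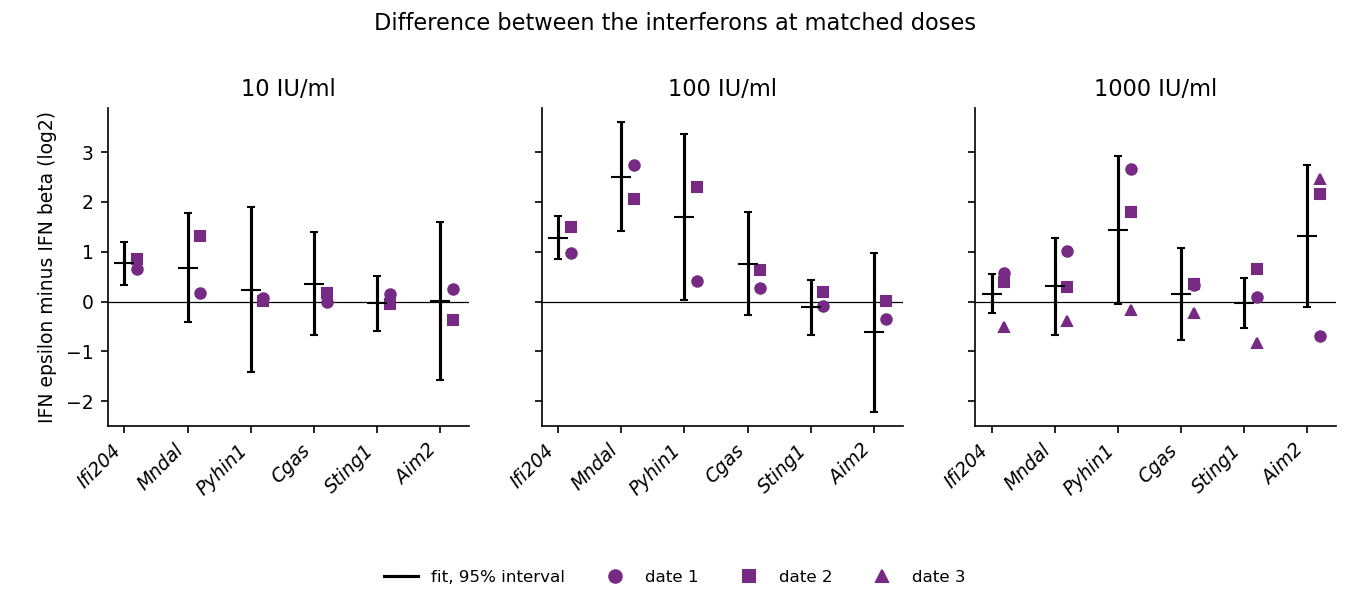
Log2 difference between IFN epsilon and IFN beta at the same dose (y axis) for each tested gene (x axis), 1 panel a dose. Black marks are the fitted difference with its 95% interval from limma, and the points are the differences within single dates. The Ifi204 interval at 100 IU/ml, 0.85 to 1.72, lies above 0, and at 1000 IU/ml it runs from -0.24 to 0.55.

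Within each interferon, the top dose exceeded the lowest for the same leading genes. With IFN epsilon, Ifi204 was 3.14-fold higher at 1000 than at 10 IU/ml (log2 1.65, adjusted p = 7.53e-04) and Mndal 6.76-fold higher (log2 2.76, adjusted p = 0.00724), and Pyhin1 was at least 2.87-fold higher (adjusted p = 0.0210). These were 3 of the 6 genes, against 1.36% of all genes. Pyhin1 passed the filter on dim probes only through the 1000 IU/ml IFN epsilon group. A difference in this comparison was thus built into its being tested, and the calls free of this are Ifi204 and Mndal. With IFN beta, Ifi204 was 4.80-fold higher (log2 2.26, adjusted p = 2.74e-05) and Mndal 8.74-fold higher (log2 3.13, adjusted p = 0.00425), which were 2 of the 6, against 1.12% of all genes. With the date as a block 4 and 2 genes passed, against 3.34% and 1.59% of all genes, and the gene added was Cgas with IFN epsilon (log2 0.95, adjusted p = 0.745 without the block and 0.0137 with it). The 4 genes again include Pyhin1. The difference between the dose effects of the interferons was -0.61 ± 0.27 SE for Ifi204 (IFN epsilon minus IFN beta, adjusted p = 1.00). It passed for no member and for no gene (0%), with 132 genes at an unadjusted p under 0.05 in limma.

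Other members of the family give a comparison beside those named at the start. Of 8 further PYHIN names, after synonyms were merged, 4 were named by a probe (Ifi205, Ifi208, Ifi213 and Ifi214) and 2 were tested. Ifi205, a PYHIN gene induced by interferon in mouse macrophages, had levels of 4.80, 4.94 and 5.15 at 1000 IU/ml IFN epsilon and 4.05, 4.54 and 5.64 at 1000 IU/ml IFN beta, against 1.54, 1.45 and 2.00 in UT cells. It rose by log2 2.74 at 100 IU/ml IFN epsilon (adjusted p = 3.86e-04), 3.30 at 1000 IU/ml IFN epsilon (adjusted p = 3.76e-05) and 3.08 at 1000 IU/ml IFN beta (adjusted p = 1.01e-04, all in limma). At 10 IU/ml IFN epsilon and 100 IU/ml IFN beta its log2 differences of 1.44 and 1.04 passed only with the date as a block (adjusted p = 0.00277 and 0.0344). At 100 IU/ml it was higher with IFN epsilon than with IFN beta by log2 1.71, again only with the block (adjusted p = 0.142 without it and 0.0177 with it). A second Ifi205 probe, dim in UT cells, differed from UT by log2 6.38 at 1000 IU/ml IFN epsilon and 5.62 at 1000 IU/ml IFN beta.

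The probes of Ifi208 disagreed. The brightest, which stood for the gene, differed from UT by log2 0.02 at 1000 IU/ml IFN epsilon, which did not pass. A dimmer probe was above background on 3 of 3 arrays at 1000 IU/ml IFN epsilon, against 0 of 6 in UT cells, and was at least 8.08-fold higher. It was above background on 2 of 3 arrays at 1000 IU/ml IFN beta, with levels of -5.74, -4.31 and -1.76 on dates 1 to 3. Ifi213 was above background on 1 array at 1000 IU/ml of each interferon, and Ifi214 on none. The Ifi200 genes are close copies of each other and the probe sequences were not used here, so how far a probe named for one gene also measures a neighbour was not tested.

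**Figure D4:**
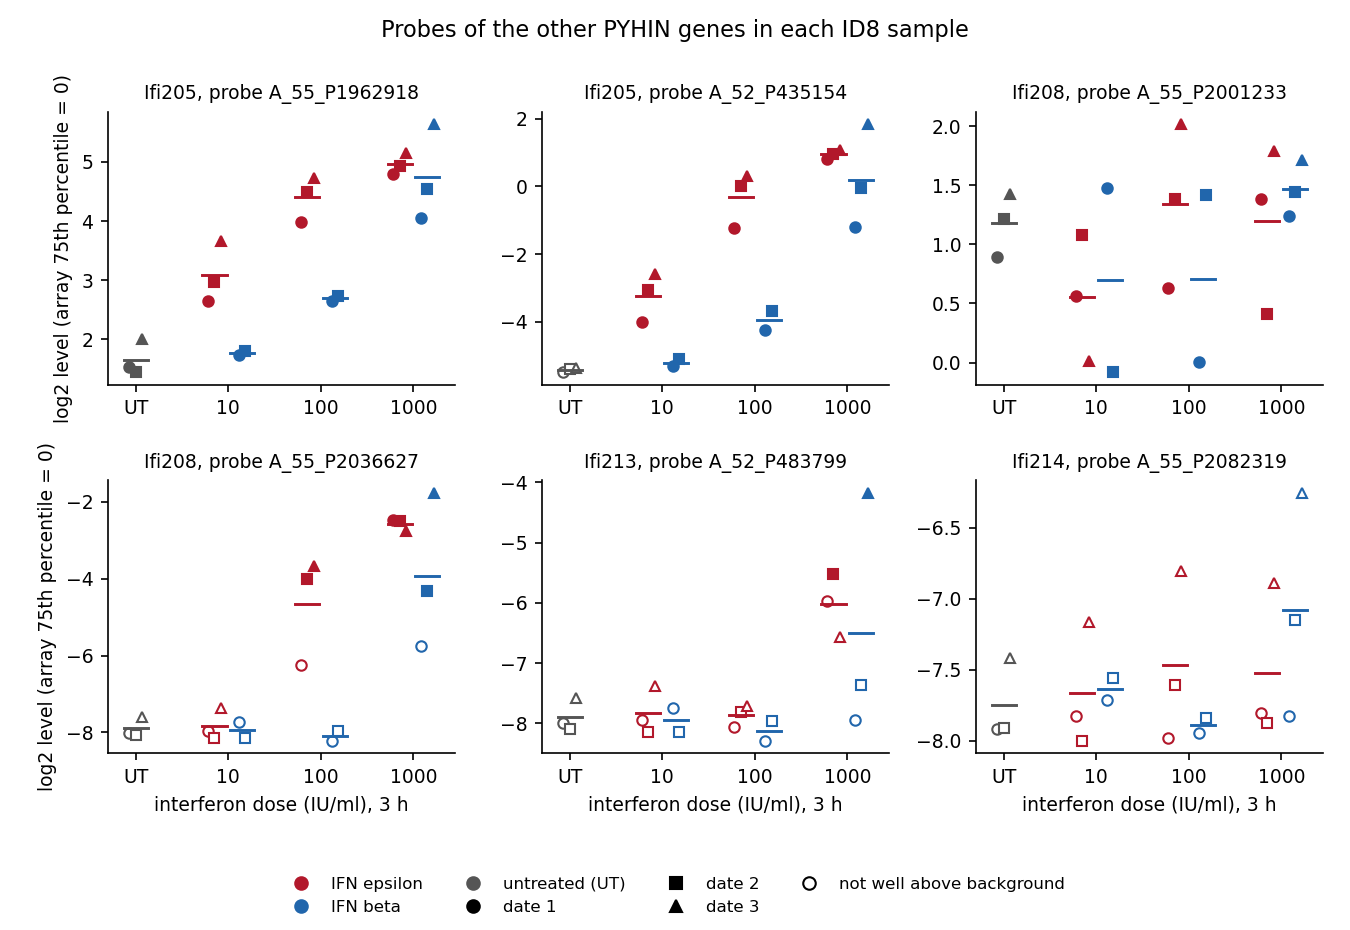
Level in every sample (y axis, log2 intensity relative to the array's 75th percentile) of the probes of PYHIN genes outside the list of 8, by group (x axis), 1 panel a probe, with the group mean as a line. Open points are samples in which not all arrays were well above background. Both Ifi205 probes are higher at 1000 IU/ml of either interferon than in UT cells, and the Ifi208 probes differ from each other.

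The rest of the pathway was read from lists of genes grouped by function, chosen with earlier results of these data known. Their counts beside the shares of all genes are therefore a description and not a test. Among 21 tested genes of Sting signalling and its transcription factors, 1, 1 and 2 were higher at 10, 100 and 1000 IU/ml IFN epsilon and 0, 0 and 1 at those doses of IFN beta, with a list median between -0.09 and 0.02 in the 6 comparisons. The shares of all tested genes called higher, given beside this and the following lists, were 0.201%, 1.05% and 2.19% with IFN epsilon and 0%, 0.111% and 1.55% with IFN beta. Irf7, the interferon-induced relative of Irf3, rose by log2 2.38 (adjusted p = 0.00683), 3.43 and 3.88 (adjusted p = 1.23e-05) with IFN epsilon and by 3.67 at 1000 IU/ml IFN beta. Trim56, a ubiquitin ligase reported to act on Sting and Cgas, rose by log2 1.35 at 1000 IU/ml IFN epsilon (adjusted p = 0.0187). With the date as a block, 2 genes were lower at 1000 IU/ml IFN epsilon, where 3.89% of all genes were called lower, and 1 at 1000 IU/ml IFN beta, where 0.478% were. The adaptor Traf3 had log2 differences of -0.51 and -0.31 in these comparisons, and the ubiquitin ligase Rnf5 had -0.41 with IFN epsilon. These 2 names were taken after their values were seen.

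Among 19 other cytosolic DNA sensors and cofactors, 1 gene was higher at 100 and 1000 IU/ml IFN epsilon and at 1000 IU/ml IFN beta. It was Zbp1, a sensor of Z-form nucleic acid, which rose by log2 4.44, 5.60 and 4.92. Of 10 genes listed for handling DNA, its nucleotides or cyclic dinucleotides, 8 were tested and 2 were higher at 1000 IU/ml IFN epsilon. The exonuclease Trex1 rose by log2 2.53 there and by 2.38 at 1000 IU/ml IFN beta, and the dNTP hydrolase Samhd1 by 1.36 at 1000 IU/ml IFN epsilon. With the date as a block, Trex1 and Samhd1 were both called at 100 IU/ml IFN epsilon (adjusted p = 0.00246 and 0.0136) and Samhd1 also at 1000 IU/ml IFN beta (0.00162). Of 12 inflammasome genes, not all of them partners of Aim2, 7 were tested and 2 were higher at 1000 IU/ml IFN epsilon. They were the caspases Casp4, with log2 2.01, and Casp1, with 1.61, and Casp4 also rose by 1.77 at 1000 IU/ml IFN beta.

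Products that Sting signalling is known to switch on were measured for 9 of 10 genes, and several of them are also direct targets of interferon. At 10, 100 and 1000 IU/ml IFN epsilon 1, 3 and 3 were higher, and 3 at 1000 IU/ml IFN beta. The list median was 2.59 and 0.81 at 1000 IU/ml of IFN epsilon and IFN beta. These medians are of fitted values and take in genes that did not pass. In the direct comparison of the interferons at 1000 IU/ml the list median was 0.13, and 0 of the 9 passed in limma with or without the block. Ifit1, a binder of viral RNA, rose by log2 6.29 and 7.09 at 100 and 1000 IU/ml IFN epsilon and 6.83 at 1000 IU/ml IFN beta. The chemokine Cxcl10 rose by log2 4.43, 4.95 and 4.65 in the same comparisons, and the ubiquitin-like Isg15 by 3.60, 3.84 and 3.74, besides 2.61 at 10 IU/ml IFN epsilon. With the block the count at 1000 IU/ml IFN epsilon was 6, the added genes being Ccl2, Ccl5 and Il6, again named after their values were seen. Their log2 differences were 0.67, 0.79 and 2.59. At lower doses the block added Zbp1 and Ifit1 at 10 IU/ml IFN epsilon (adjusted p = 0.0448 and 8.26e-04), Trim56 and Casp4 at 100 IU/ml IFN epsilon (0.0131 and 0.0225), and Irf7, Isg15 and Ifit1 at 100 IU/ml IFN beta (0.00353, 0.00308 and 0.00417). It added Trim56, Casp1 and Il6 at 1000 IU/ml IFN beta (adjusted p = 0.00199, 0.0411 and 0.00483, all in limma).

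**Figure D5:**
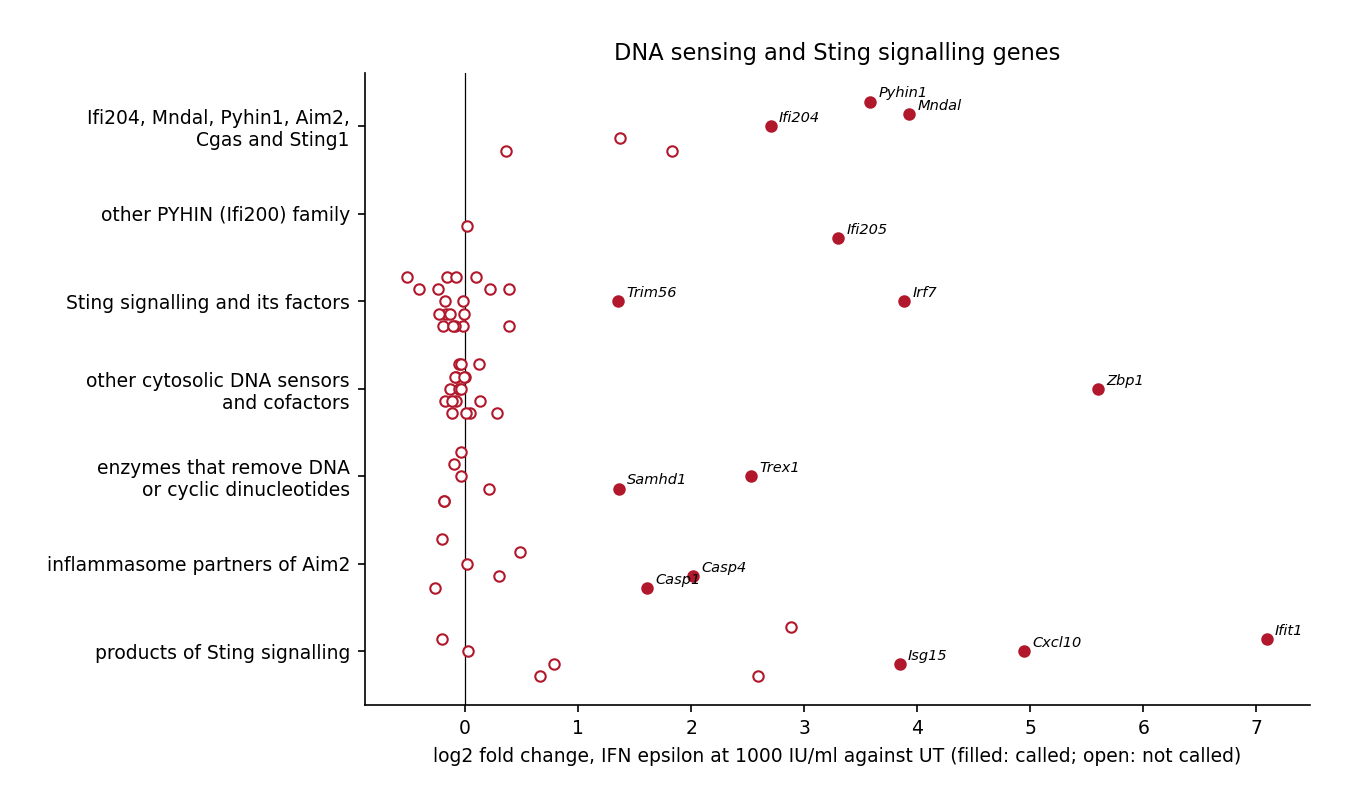
Log2 difference from UT (x axis) at 1000 IU/ml IFN epsilon for the tested genes of each list (y axis), with filled and named points for genes that passed the test without a block. Most genes of Sting signalling lie near 0, with Irf7 at 3.88, while Ifit1, Zbp1 and Cxcl10 lie furthest to the right. Not every gene in the list labelled inflammasome partners of Aim2 is such a partner. Nor does every gene in the list labelled enzymes remove DNA or cyclic dinucleotides.

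Across the 19 samples, the members' levels ran together to different degrees, as a description of samples that share doses and dates. Pearson's r was 0.944 between Ifi204 and Mndal, 0.876 between Pyhin1 and Cgas and 0.796 between Ifi204 and Cgas, against 0.468 between Ifi204 and Sting1. Pyhin1 was above background only on 3 of 3 arrays at 1000 IU/ml IFN epsilon and 1 of 3 at 1000 IU/ml IFN beta. Its other values are background signal, so its r rests largely on how those few samples differ from background. For each of the members called against UT, the 3 genes whose levels were most like it were taken over all tested genes. They were Gbp7, Gvin1 and Slfn9 for Ifi204 (r = 0.991, 0.991 and 0.989), and Tlr3, Lgals8 and Phf11b for Mndal (r = 0.976, 0.976 and 0.975). For Pyhin1 they were Cxcl9, Ly6a and Klrk1 (r = 0.973, 0.969 and 0.966), of which Cxcl9 and Klrk1, like Pyhin1, were not above background in UT cells. Nor were Cxcl9, Klrk1 and Pyhin1 above background at 10 IU/ml of either interferon or at 100 IU/ml IFN beta.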

How the data were processed

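RNA from ID8 cells was labelled with Cy3 and hybridised to Agilent single-colour arrays. Per the submitters' processing notes, scans were read with Agilent Feature Extraction 11.0.1.1 and processed with R 3.6.1 and limma 3.42.0. The deposited scanner files give each spot's processed signal as a linear intensity. The authors' deposited value table is on a log2 scale, its centring is not stated, and it correlated at 0.989 to 0.995 with the scanner values of the same array. It was used as an alternative.

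Here the processed signal was taken to log2 and set against the 75th percentile of its array. Spots marked as outliers were left out, and spots of a probe and the 2 arrays of a UT sample were averaged. A probe was kept where 2 or more samples of any group were well above background. The brightest kept probe stood for a gene. Of 56605 probes, 32994 had a gene name through the RefSeq accession and 23611 had none. All groups were fitted together in limma 3.58.1 (R 4.3.3) with 12 residual degrees of freedom, and Benjamini-Hochberg adjusted p under 0.05 was called. Called fold changes are relative to the 75th percentile. Bounds use the dimmest signal well above background on each array.

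The replicate number marks the date in the study's design text. Same-numbered samples had deviations from their group means that correlated at a median of 0.473 (52 pairs, 46 over 0.1), against -0.210 for 102 pairs with different numbers, so the fit with the date as a block is given where it changes a call. The genes and lists were chosen with earlier results of these data known. Beside the members and the measured PYHIN genes, the text names up to 3 called genes of each list with the largest change in each comparison with UT, and the 3 genes most like each called member. Alternatives were median scaling, quantile normalization, normexp correction (offset 50, from the median signal), the authors' values, 2 other filters on dim probes, the mean over probes, the replicate block, the slide as a block, all 24 arrays, a variance trend, only the groups compared, and leaving out each sample. The labels' protocols give 100 ng of RNA per labelling.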

Additional observations from a re-analysis of the deposited data

Results flagged for a closer look

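At 100 IU/ml the log2 level of Ifi204 was 1.28 higher with IFN epsilon than with IFN beta, by the test of the difference itself, and 0.62 higher, without passing, when the samples left out by the labels were put back. The third-date samples of IFN beta at 10 and 100 IU/ml, which the labels leave out for high interferon-stimulated genes, were above the highest UT sample for most members. At 100 IU/ml IFN beta the levels in that sample were 5.98 for Ifi204, 2.61 for Mndal, -3.34 for Pyhin1, 3.55 for Cgas and 3.21 for Sting1. At 10 IU/ml IFN beta they were 5.70 for Ifi204, 2.16 for Mndal, -5.34 for Pyhin1 and 3.03 for Cgas. The highest UT levels were 3.04 for Ifi204, -1.47 for Mndal, -7.25 for Pyhin1, 1.86 for Cgas and 2.78 for Sting1. Aim2 was not above its highest UT level of -5.87, with -6.81 at 100 IU/ml and -6.36 at 10 IU/ml, nor was Sting1 at 10 IU/ml, with 2.67. These samples were thus left out on genes of the kind measured here, and the comparisons at 10 and 100 IU/ml IFN beta depend on that choice.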

How the results depend on the processing

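No called member changed direction in any alternative. With all 24 arrays, the number of members called against UT was 0 at 10 and 100 IU/ml IFN epsilon, 1 at 1000 IU/ml IFN epsilon and 0 at 1000 IU/ml IFN beta, 0 between the interferons at 100 IU/ml and 0 for 1000 against 10 IU/ml of either interferon. At 10 IU/ml IFN epsilon against UT the count was 0, in place of 1, under median scaling, with no filter, with only the groups compared, and in every fit without 1 sample (0 to 0). At 100 IU/ml IFN beta against UT it was 1, in place of 0, under quantile normalization, with the authors' values and with the replicate block. Between the interferons at 100 IU/ml it was 0 under median scaling, with no filter and with only the groups compared, 2 with the authors' values and with the slide as a block, and 0 to 1 without 1 sample. For 1000 against 10 IU/ml IFN beta it was 0 with only the groups compared and 1 to 2 without 1 sample, the 1 being without the second 10 IU/ml IFN beta sample. For 1000 against 10 IU/ml IFN epsilon it was 2 in each fit without 1 sample. The cause was not tested, beyond fewer samples in the fits that leave some out. The date as a block, which pairs samples of one date, moved other calls of the members only as given in the report. The number of arrays, 2 or 3 samples a group, limits precision, and for Pyhin1, Aim2 and Ifi202b signal near background does.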
